A study of Mus musculus with 6 samples.

Results

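Retnla, Fcrls and Mrc1 are 3 genes used to describe macrophages, and they were found here by their symbols among the 32285 genes of the count matrices. They were selected on their UMI counts by skeletal site in earlier results of these data, which had shown Retnla and Fcrls higher in mandibular-derived cells and Mrc1 in the same cells, so their levels by site are a description here and carry no test. Single-cell RNA sequencing had been run on CD11b+ bone marrow cells of 2-month-old C57Bl/6 mice, in 3 femur samples (replicate 1 female, replicates 2 and 3 male) and 3 mandible samples (all male), with no other treatment or allele named. The mandible marrow came from jaws whose molars had been pulled and whose sockets were flushed as well, and the femur labels speak of femurs and tibiae, whereas the study's methods speak of femurs. The number of mice in a sample is not given, so the spread between samples may be partly technical. A total of 69776 cells kept by the authors entered the counts below, 7763 to 22797 per sample, with 82962160 to 244946998 unique molecular identifiers (UMIs, each standing for 1 captured transcript) per sample.

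Retnla encodes RELMα, also called FIZZ1, a small secreted protein of the resistin family that macrophages make when interleukin 4 or 13 acts through STAT6. Fcrls encodes a scavenger receptor-like member of the Fc receptor-like family and is best known as a marker of microglia, the macrophages of the brain. Mrc1 encodes the mannose receptor CD206, an endocytic receptor of tissue-resident macrophages, among them those of the marrow, and of alternatively activated macrophages. The 3 genes lie on different chromosomes (mm10, GENCODE vM21). Retnla (ENSMUSG00000061100) is at chr16:48842551-48844461 on the plus strand, Fcrls (ENSMUSG00000015852) at chr3:87250758-87263738 on the minus strand, and Mrc1 (ENSMUSG00000026712) at chr2:14229392-14332057 on the plus strand.

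The stretches of the 3 promoters from 250 to 61 bases before the RefSeq start site (build GRCm38.p6, each 5′ to 3′ on the gene's own strand) are shown because the 3 genes are read together below. Capitals mark matches to a STAT6 motif, TTCNNNNGAA, or to the core of the motif of PU.1 (the myeloid factor Spi1), GAGGAA, on either strand.
Retnla, chr16:48842359-48842548, plus strand: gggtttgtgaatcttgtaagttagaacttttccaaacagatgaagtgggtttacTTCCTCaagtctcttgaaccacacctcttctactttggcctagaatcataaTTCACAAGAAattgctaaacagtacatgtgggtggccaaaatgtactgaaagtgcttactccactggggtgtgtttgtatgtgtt
Fcrls, chr3:87263585-87263774, minus strand: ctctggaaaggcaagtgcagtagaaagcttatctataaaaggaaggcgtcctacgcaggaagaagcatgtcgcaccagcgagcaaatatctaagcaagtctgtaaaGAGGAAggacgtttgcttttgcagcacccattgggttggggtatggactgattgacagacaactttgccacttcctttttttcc
Mrc1, chr2:14229164-14229353, plus strand: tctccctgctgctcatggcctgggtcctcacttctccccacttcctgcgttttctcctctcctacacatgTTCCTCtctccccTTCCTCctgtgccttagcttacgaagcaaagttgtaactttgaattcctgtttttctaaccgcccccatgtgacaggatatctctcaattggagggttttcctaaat
The Retnla stretch held 1 match to each motif, the Fcrls stretch 1 PU.1 match and the Mrc1 stretch 2 PU.1 matches, with no overlap between matches. Of 32851 promoter stretches of the same length, 18% held the PU.1 core and 4.54% the STAT6 motif. The core of the MAF motif, TGCTGA, was also searched on both strands and was in none of the 3 stretches and in 12.3% of all. For Fcrls the RefSeq start site lies inside the GENCODE span given above, so most of its stretch, with the PU.1 match, falls within that span. These letter matches describe the sequence and say nothing about binding.

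All 3 genes were counted mainly in cluster 5, the monocyte and macrophage cluster of the authors' 9 clusters. Cluster 5 held 95.7% of the 884 Retnla UMIs, 89.5% of the 287 Fcrls UMIs and 92.3% of the 13972 Mrc1 UMIs, in 7354 of the 69776 cells. By the authors' match to the ImmGen reference, 47.5 ± 5.9% of its cells at the femur and 55.1 ± 7.8% at the mandible were labelled Monocytes, 37.5 ± 10.7% and 29.5 ± 4.9% Neutrophils, and 8.59 ± 6.35% and 5.21 ± 2.09% Macrophages (SD, n = 3 each). Within it, cells labelled Macrophages carried the macrophage receptor Mertk at 1191 ± 244 UMIs per 1000000 UMIs (CPM; SD, n = 6 samples) and the complement gene C1qa at 3538 ± 789 CPM. Cells labelled Monocytes carried Mertk at 0.757 ± 0.573 CPM and the monocyte gene Ly6c2 at 1836 ± 306 CPM, so the markers matched both labels. Cells of cluster 5 labelled Neutrophils held 79973 ± 16293 CPM of the granule gene S100a8, against 4960 ± 2636 CPM in those labelled Macrophages.

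Retnla was almost confined to a handful of mandibular-derived cells. The 3 mandible samples held 544, 233 and 67 Retnla UMIs in cluster 5, or 49.2, 15.6 and 4.19 CPM, and the femur samples 1, 0 and 1. The groups did not overlap in CPM, a pattern that 7.32% of the 13765 genes compared in cluster 5 showed in this direction. Summed over samples, the CPM was 472-fold higher at the mandible (95% exact interval 130 to 3906, for counting error only), from 844 against 2 UMIs. It was 228-fold without mandible replicate 1, 308-fold without femur replicate 2 and 733-fold without femur replicate 1. Those UMIs came from few cells, with 4, 1 and 5 Retnla-positive cells in the mandible samples and 1, 0 and 1 in the femur samples. The interval treats UMIs as independent draws, although 835 of the 844 came from 6 cells. Counted by cells, 10 against 2 pooled over the samples, the share of positive cells was 5.75-fold higher at the mandible. Cells of a sample are not replicates, so this ratio describes the pooled cells and is no test of site. The share of positive cells did overlap between sites, since the single cell of mandible replicate 2 was 0.0770% of its cluster 5 and the single cell of femur replicate 1 was 0.0941%.

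The 6 cells richest in Retnla held 835 of the 844 mandibular UMIs, 98.9%. Mandible replicate 1 had cells of 270, 215, 38 and 21 UMIs, mandible replicate 2 a cell of 233 and mandible replicate 3 a cell of 58. The next cells down held 5 and 2 UMIs, both in mandible replicate 3. In the richest cell Retnla was 1.46% of all transcripts counted, and in the cell of mandible replicate 2 it was 2.87%. Each of the 6 also held Fcrls, at 5 to 18 UMIs, and Mrc1, at 2 to 10 UMIs. They were cells of ordinary depth, with 7565 to 21465 UMIs and 2623 to 4779 genes, and 5 of the 6 belonged to cluster 8 of the authors' finer clustering at resolution 0.5.

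The 6 cells did not share a reference label or a full macrophage profile. Their ImmGen labels were Monocytes for 2 cells, Macrophages for 2, DC (dendritic cells) for 1 and Neutrophils for 1. Mgl2, a galactose-binding lectin induced by interleukin 4, was counted in 5 of the 6, the scavenger receptor Cd163 in 3 and C1qa in 2. Vcam1, Timd4, Lyve1, Folr2 and Ccl8, which mark resident macrophages of marrow and other tissues, were counted in none of them, and neither was Arg1, the arginase of alternative activation. The cell with 58 Retnla UMIs carried 710 UMIs of S100a8, 4.45% of its transcripts, whereas S100a8 was at most 0.145% in the other 5.

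**Figure D1:**
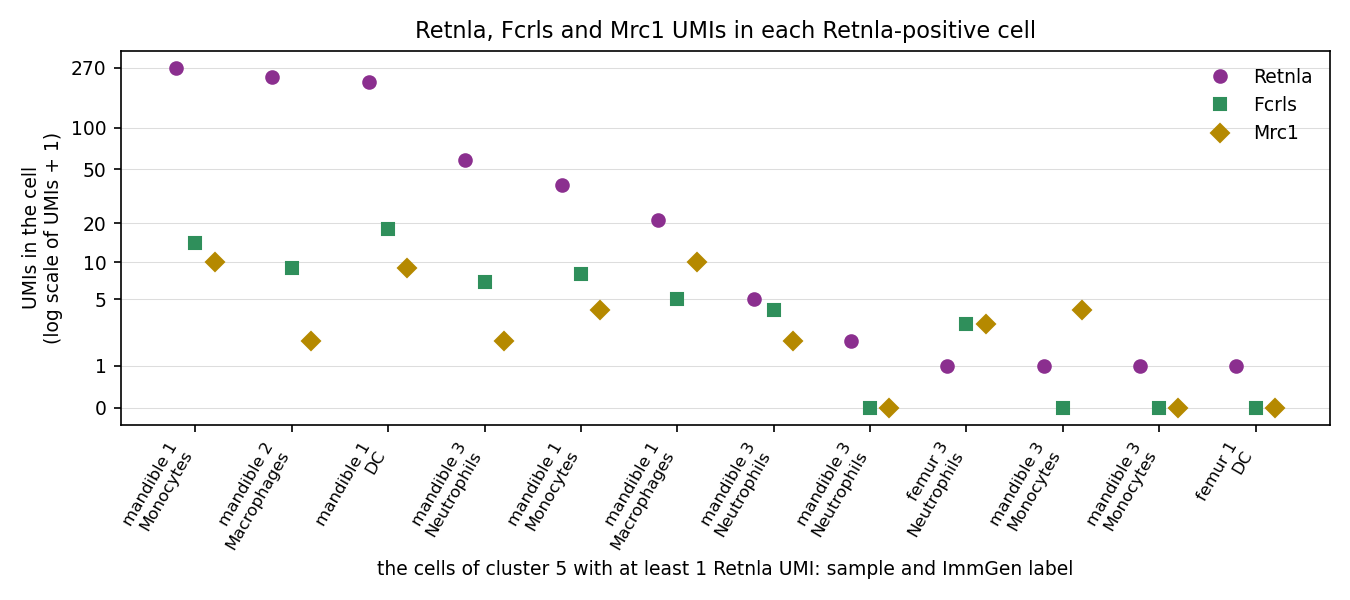
UMIs of Retnla, Fcrls and Mrc1 (log scale of UMIs + 1, axis marked in UMIs) in each of the 12 Retnla-positive cells of cluster 5, ordered by Retnla, with sample and ImmGen label below. The 6 cells with 21 or more Retnla UMIs are all mandibular-derived and all hold Fcrls and Mrc1, whereas 4 of the 6 cells with 5 or fewer lack Fcrls.

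Single Retnla UMIs were also found outside cluster 5. There, Retnla was in 13 of 40729 cells at the femur (0.0319%) and in 24 of 21693 at the mandible (0.111%), at 1.00 and 1.04 UMIs per positive cell and with median depths of 7768 and 7386 UMIs. The share was 0.0218 to 0.0589% in the femur samples and 0.183, 0.0134 and 0.137% in mandible replicates 1 to 3, so mandible replicate 2 lay below each femur sample. The 2 femur-derived cells of cluster 5, at 1 UMI each and 0.0545 ± 0.0488% of cells (SD, n = 3), could not be told from this level by Retnla alone, and the same holds for the 2 mandibular-derived cells with 1 UMI. One of the femur-derived cells, in replicate 3, also held 3 Fcrls and 3 Mrc1 UMIs, and the other held neither gene. The median depth of cluster 5 was 10199 UMIs at the femur and 9929 at the mandible. Retnlg, the neighbouring resistin family gene at chr16:48872621-48874496, is abundant in neutrophils. Neutrophil clusters 0 to 3 held 3457470 Retnlg UMIs at the femur and 2110348 at the mandible, beside 13 and 18 Retnla UMIs.

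Fcrls was also higher at the mandible, and in more cells. Cluster 5 of the mandible samples held 75, 52 and 108 Fcrls UMIs, or 6.78, 3.47 and 6.75 CPM, and the femur samples 11, 5 and 6 UMIs, or 1.04, 0.306 and 0.298 CPM. The groups did not overlap, and the lowest mandible sample was above the highest femur sample, which was the female one. Of the 13765 genes compared in cluster 5, 7.32% were separated in this direction. The positive cells numbered 18, 14 and 30 at the mandible and 8, 4 and 4 at the femur, so the share was 1.84 ± 0.74% against 0.437 ± 0.274% (SD, n = 3 each). The fitted log2 difference was 3.44 ± 0.50 (SE). Mandibular-derived positive cells held more copies too, 3.60 to 4.17 UMIs a cell against 1.25 to 1.5. Outside cluster 5 it was found in 3 cells at the femur and 23 at the mandible, shares of 0.00737% and 0.106%.

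The 78 Fcrls-positive cells were spread over several reference labels. Of the 62 at the mandible, 24 were labelled Macrophages, 18 Neutrophils, 9 Monocytes, 6 DC and 5 Microglia. Of the 16 at the femur, 5 were labelled Macrophages, 5 Neutrophils, 4 Monocytes, 1 DC and 1 Microglia. The clearest contrast was among cells labelled Macrophages, of which 8.33, 15.2 and 20.8% had Fcrls in the mandible samples and 1.80, 2.15 and 0% in the femur samples. The 0 of 51 cells in femur replicate 3 allows a share of up to 5.88% of cells with a UMI. Cells labelled Macrophages were shallow, with a median of 3756 UMIs at the femur and 4051 at the mandible. In the finer clustering, 45 of the 62 mandibular-derived and 14 of the 16 femur-derived positive cells were in cluster 8. The remaining mandibular-derived cells included 11 in cluster 15, where no Fcrls-positive cell was seen among 546 femur-derived cells, which allows a share of up to 0.549% of cells with a UMI. Cells of cluster 15 were shallow, with a median of 2424 UMIs at the femur and 4110 at the mandible, and the part of depth in this difference was not tested.

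Mrc1 was not higher at the mandible. Its CPM in cluster 5 was 444, 163 and 53.1 in the femur samples and 181, 60.8 and 97.7 in the mandible samples, from 1069 to 4691 and 910 to 1998 UMIs. The groups overlapped fully, with the female femur replicate 1 highest and femur replicate 3 lowest. The fitted log2 difference was −0.93 ± 0.65 (SE) with all samples and 0.01 without femur replicate 1. The share of Mrc1-positive cells was 33.3, 17.8 and 12% at the femur and 14.7, 10.4 and 13.4% at the mandible. Among cells labelled Macrophages most were positive at both sites, 62.7 to 90.4% at the femur and 78.3 to 90.6% at the mandible.

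The number of macrophages also varied between samples. Cells labelled Macrophages made up 15.7, 6.51 and 3.53% of cluster 5 at the femur and 7.56, 3.54 and 4.53% at the mandible. The mean share differed by −3.37 percentage points, mandible minus femur (2-sided exact permutation test over samples, p = 0.70; 3 against 3 samples cannot reach a p below 0.10), and without femur replicate 1 by 0.189 points. The summed level of 9 genes of marrow iron-recycling macrophages ranged from 732 to 3664 CPM in cluster 5 of the femur samples and from 510 to 1226 CPM in the mandible samples. The part of macrophage number in the Mrc1 values was not tested.

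**Figure D2:**
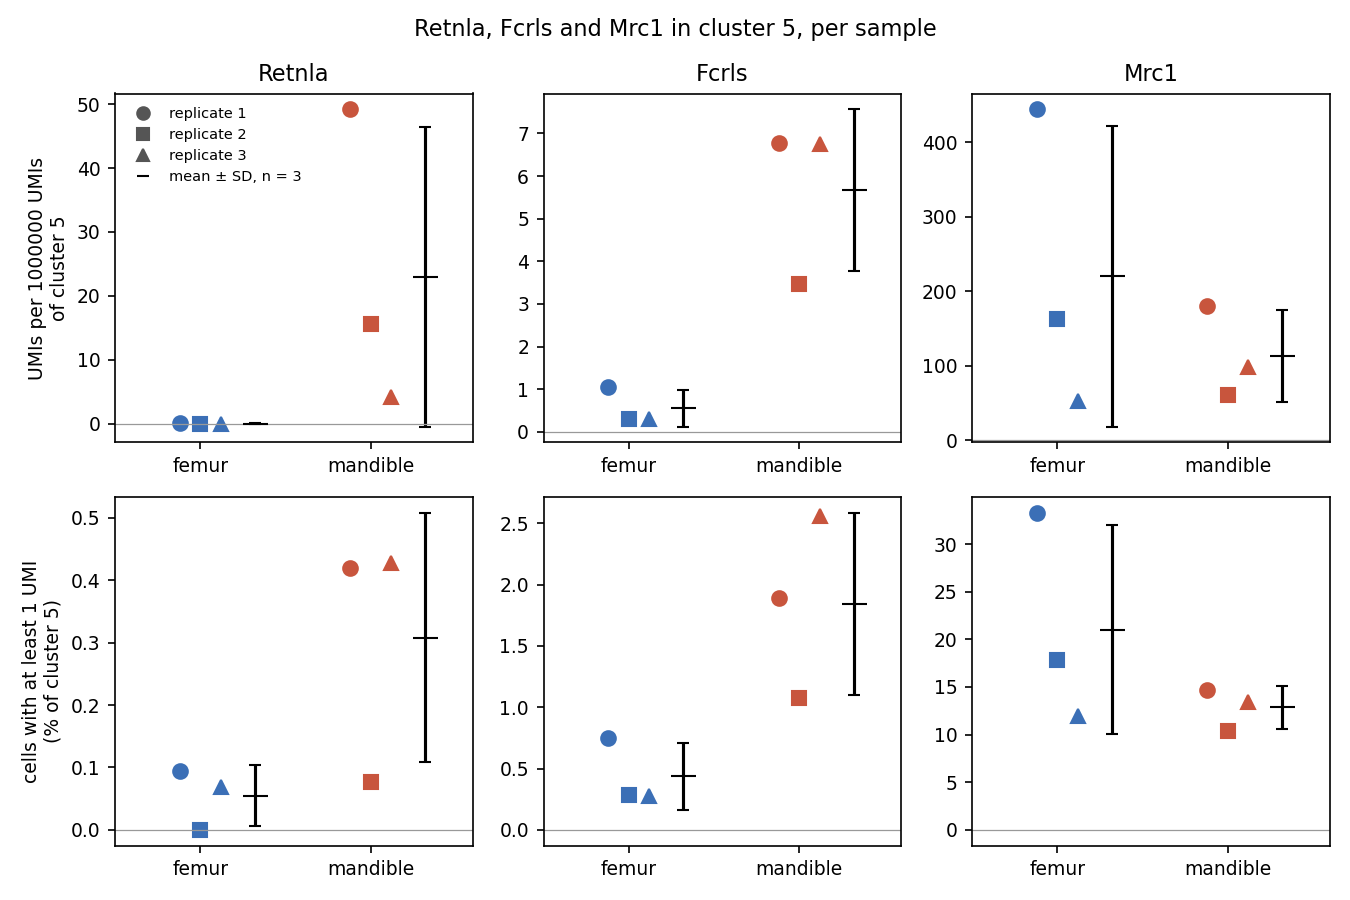
UMIs per 1000000 UMIs (upper row) and percent of cells with at least 1 UMI (lower row) of Retnla, Fcrls and Mrc1 in cluster 5, for each femur and mandible sample (symbols by replicate), with the mean ± SD of 3 samples in black. The 3 mandible samples lie above the 3 femur samples for Retnla and Fcrls CPM and for the Fcrls share, and the sites overlap for the Retnla share and for Mrc1.

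**Figure D3:**
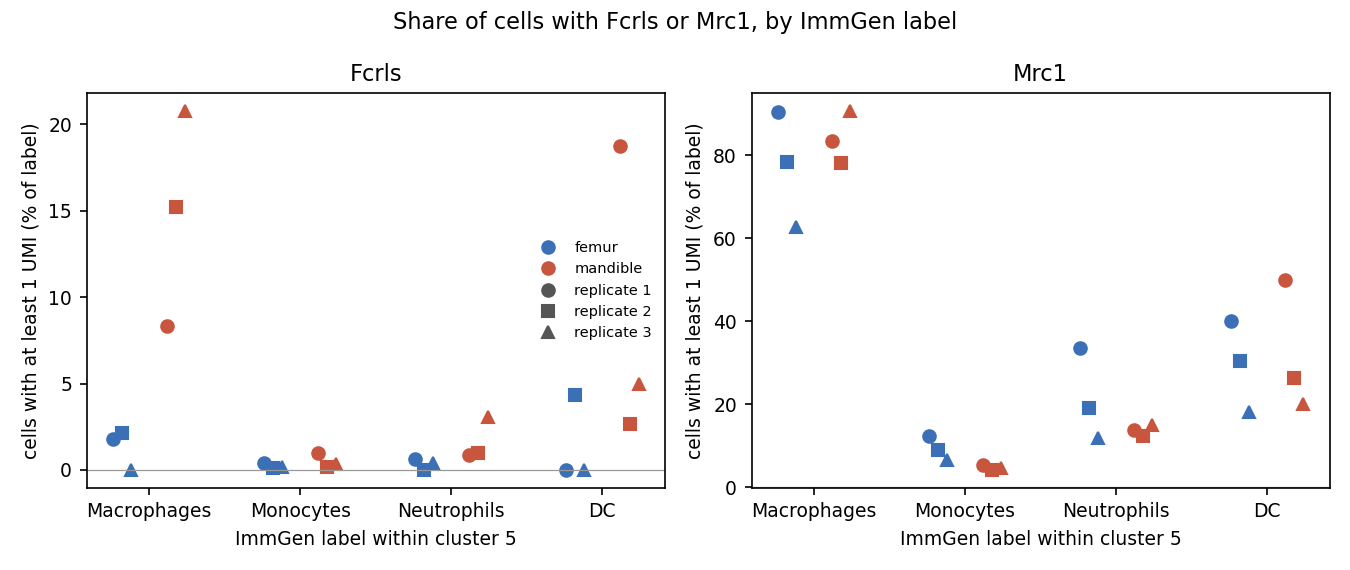
Percent of cells with at least 1 Fcrls UMI (left) or Mrc1 UMI (right) among cells of cluster 5 with each of 4 ImmGen labels, per sample, coloured by site. Among cells labelled Macrophages the mandible samples lie at 8.33 to 20.8% for Fcrls and the femur samples at 0 to 2.15%, whereas both sites lie above 60% for Mrc1.

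The sites kept this order after thinning. With each cell thinned to 3000 UMIs and shallower cells left out (551 at the femur, 247 at the mandible), 28 mandibular-derived and 3 femur-derived cells of cluster 5 kept a Fcrls UMI, shares of 0.870 ± 0.206% and 0.0963 ± 0.0365%. For Retnla the numbers were 8 and 1 cells. For Mrc1 the shares were 6.63 ± 1.53% and 11.2 ± 6.2%.

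The 3 genes were found together. Of the 12 Retnla-positive cells of cluster 5, 8 also had Fcrls and Mrc1 (among them the femur-derived cell with a single Retnla UMI), 1 had Mrc1 without Fcrls and 3 had neither. Fcrls and Mrc1 shared 58 cells, 74.4% of the 78 Fcrls-positive cells, whereas Mrc1 was found in 15.9% of the cells without Fcrls. In every sample Fcrls-positive cells had Mrc1 more often than the other cells, with a log2 odds ratio of 3.98 ± 1.74 (SD, n = 6 samples) as counted and 5.12 ± 0.86 after thinning to 3000 UMIs. For the ratios 0.5 was added to each count, and after thinning each femur sample had only 1 Fcrls-positive cell. These ratios describe cells that share libraries and carry no test. Conversely, few Mrc1-positive cells had Fcrls. Their share was 4 of 354, 4 of 254 and 3 of 173 cells at the femur, or 1.48 ± 0.31%, and 10 of 140, 11 of 135 and 26 of 157 cells at the mandible, or 10.6 ± 5.2% (SD, n = 3 each). The groups did not overlap, with 1.73% the highest femur share and 7.14% the lowest mandible share. Fcrls had been chosen by site, so this is a description, and how many other genes separate in this way was not counted. Mrc1-positive cells without Fcrls were shallower at the femur, with a median of 6262 UMIs against 8756. After thinning to 3000 UMIs the counts were 1 of 132, 1 of 109 and 1 of 92 cells at the femur and 5 of 65, 8 of 58 and 8 of 84 at the mandible, or 0.921 ± 0.165% and 10.3 ± 3.1%. Among Mrc1-negative cells, Fcrls was in 4 of 709, 0 of 1174 and 1 of 1270 cells at the femur and 8 of 812, 3 of 1163 and 4 of 1013 at the mandible.

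The Fcrls-positive Mrc1-positive cells of the mandible were then compared with the Mrc1-positive cells without Fcrls of the same samples (47 against 385 cells, summed per sample, 3 mandible samples, edgeR with sample as a block), a comparison added after the data had been seen. Of 8337 genes tested, 2.03% passed at an adjusted p under 0.05, with 91 higher (1.09%) and 78 lower (0.936%) in the Fcrls-positive cells. The count of 169 genes was 288 without mandible replicate 1, 89 with DESeq2 and 276 without the filter on low counts. Stab1, Pf4 and Ccl8 were higher in them and Vcam1, Cd5l, Timd4 and Fcna lower, so members of the resident macrophage list lay on both sides. Pooled over the 3 samples, median depth was alike, 9231 UMIs against 8756. In mandible replicate 3, 26 cells with Fcrls summed to 385043 UMIs and 131 cells without Fcrls to 1506493. The make-up of the sets was not alike. In the finer clustering, 80.9% of the cells with Fcrls were in cluster 8 and 12.8% in cluster 15. Without Fcrls the shares were 36.4% and 55.3%. The label Macrophages was on 48.9% of the former and 31.4% of the latter. The part of this make-up in the gene differences was not tested. Mrc1 itself, on which both sets were chosen, measured 938, 972 and 964 CPM with Fcrls and 1482, 716 and 791 CPM without.

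Stab1, the scavenger receptor stabilin-1, had 629, 609 and 571 CPM in the Fcrls-positive cells of mandible replicates 1 to 3 and 43.0, 27.6 and 37.8 CPM in the cells without Fcrls. The ranges were far apart, a log2 difference of 4.09 ± 0.32 (SE, adjusted p = 9.17e-07). Pf4, a chemokine that resident macrophages also make, had 747, 572 and 712 CPM against 32.1, 33.0 and 73.0 CPM (3.97 ± 0.35, adjusted p = 3.97e-06). Ccl8, a monocyte chemokine, was higher by 3.49 ± 0.50 (adjusted p = 0.000519), at 282, 54.5 and 223 CPM against 23.5, 25.0 and 6.64 CPM. Gas6, the ligand of the TAM receptors that take up dying cells, was higher by 2.55 ± 0.35 (adjusted p = 0.000382). In all, 7 of 20 tested genes of a resident macrophage list were higher, 3 lower and 10 did not pass (median log2 difference 0.84, against −0.05 over all genes tested). The 3 lower were the phosphatidylserine receptor Timd4, with 1 UMI against 233, 36.1-fold lower (95% exact interval 6.41 to 1431), and the lectins Fcna (−3.66 ± 0.41) and Cd209f (−2.52 ± 0.59; adjusted p = 0.0293, and 0.107 with DESeq2).

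Of 10 tested genes of the microglia signature, 5 were higher, 0 lower and 5 did not pass, with a median of 1.32. Sparc, another gene of this list, did not pass the low-count filter and had 0 UMIs in the Fcrls-positive cells against 179 in the others, at least 9.24-fold lower. Most of the 179 were in mandible replicate 3 (9.38, 1.78 and 110 CPM), so this bound rests on that sample. The 5 higher genes were Olfml3 (2.38 ± 0.52), the purinergic receptor Gpr34 (1.86 ± 0.38), the lipid receptor Trem2 (1.70 ± 0.35), the TGF-β receptor Tgfbr1 (1.23 ± 0.30) and the fractalkine receptor Cx3cr1 (1.16 ± 0.29), of which Gpr34, Trem2 and Cx3cr1 are also in the resident macrophage list. Without mandible replicate 3 the adjusted p of Gpr34, Trem2, Tgfbr1 and Cx3cr1 lay between 0.113 and 0.654, and without mandible replicate 2 Tgfbr1 and Cx3cr1 did not pass either (0.354 and 0.118). With DESeq2 the 4 genes did not pass (adjusted p = 0.0712 to 0.254). Tmem119 and P2ry12, the best-known microglia markers, were at 18.2 and 75.8 CPM with Fcrls and 8.83 and 29.0 CPM without and did not pass the test. Of the alternative activation list 1 of 7 tested genes was higher, Mgl2, with 228, 418 and 145 CPM against 86.0, 32.1 and 36.5 CPM (2.37 ± 0.36, adjusted p = 0.000903), and 0 were lower. None of the 7 tested genes of the interleukin 4 and 13 pathway passed, among them the receptor Il4ra at 69.3 ± 46.4 against 33.7 ± 4.2 CPM and Stat6 at 86.6 ± 24.9 against 78.1 ± 9.1 CPM (SD, n = 3).

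In the iron-recycling list 3 of 9 genes were lower, 0 higher and 6 did not pass, with a median of −1.24. Vcam1, the adhesion molecule of marrow macrophages, had 246, 345 and 296 CPM with Fcrls and 2281, 1109 and 1304 CPM without (−2.30 ± 0.41, adjusted p = 0.00446; 0.0760 without mandible replicate 3). Hmox1, the haem oxygenase, was lower by −1.78 ± 0.44 on the log2 scale (adjusted p = 0.0421; 0.0940 with DESeq2). Cd5l, a macrophage survival factor, was absent from the Fcrls-positive cells and had 651 UMIs in the others, which makes it at least 33.6-fold lower (against a floor of 3 counts over the 3 samples). Of the 3, only Cd5l passed in each of the 5 alternatives run. The complement genes C1qa, C1qb and C1qc of this list had log2 differences of 0.82, 1.39 and 0.83 and did not pass, with C1qa at 2168 ± 594 CPM against 1238 ± 270 CPM. The eosinophil chemokine receptor Ccr3 had 2 against 817 UMIs, a ratio of 63.2 (95% exact interval 17.5 to 523). Of 10 monocyte genes 1 was lower, Ly6c2 (−2.29 ± 0.56), and 9 did not pass (median −0.55). Of 10 neutrophil genes 1 was lower, Elane (−3.56 ± 0.66; adjusted p = 0.00610, and 0.164 with DESeq2; filtered out without mandible replicate 3), and 9 did not pass (median −1.13).

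The genes with the largest rises beside these were Lyz1 (6.25 ± 0.60), the semaphorin receptor gene Plxna4 (4.90 ± 0.48), Pmepa1 (4.63 ± 0.50), Adgrl3 (3.49 ± 0.42), the endocytic adaptor Dab2 (3.01 ± 0.30), the noncoding Mir99ahg (2.67 ± 0.29) and the lectin Clec4n (2.56 ± 0.37), each higher in 3 of 3 samples. Lyz1 ranged widely, at 2815, 427 and 77.9 CPM. Lyz1 shares sequence with its near copy Lyz2, so its value is uncertain. The largest falls included the integrin Itgad and the kinase Dgki, both at 0 with Fcrls and at least 32.4-fold and 27.9-fold lower. They also included the glutamate transporter Slc1a3, with 3 against 558 UMIs (28.8-fold lower, interval 9.80 to 140), Col14a1 (−3.86 ± 0.47), Myo10 (−3.89 ± 0.53), Galnt3 (−3.83 ± 0.53) and the cell cycle gene Top2a (−3.15 ± 0.46).

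Retnla was counted in the Fcrls-positive Mrc1-positive cells at 4956, 2117 and 164 CPM in mandible replicates 1 to 3, and in the Mrc1-positive cells without Fcrls at 0, 0 and 0.664 CPM. S100a8 was at 1066, 61098 and 47904 CPM in the former and 30166, 49202 and 49249 CPM in the latter. The label Neutrophils was on 14 of the 47 former cells and 126 of the 385 latter cells. Haemoglobin was high in the Fcrls-positive cells of mandible replicate 3 alone, with Hba-a1 at 27.3, 0 and 5805 CPM. The part of neutrophil and erythroid RNA in these cells was not tested, and how doublets were treated is not stated.

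The few femur-derived cells with both genes looked similar, as a description of 11 cells pooled from 3 samples and outside the test. They held 486 CPM of Stab1 against 21.8 CPM in the 770 femur-derived Mrc1-positive cells without Fcrls. Pf4 stood at 486 against 63.0 CPM, Ccl8 at 567 against 21.4 CPM and Mgl2 at 419 against 43.2 CPM. Vcam1 was lower, at 250 against 2023 CPM, and Timd4, Ccr3, Cd5l and Fcna had no UMI. Retnla differed, with 1 UMI or 6.75 CPM in these femur-derived cells.

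**Figure D4:**
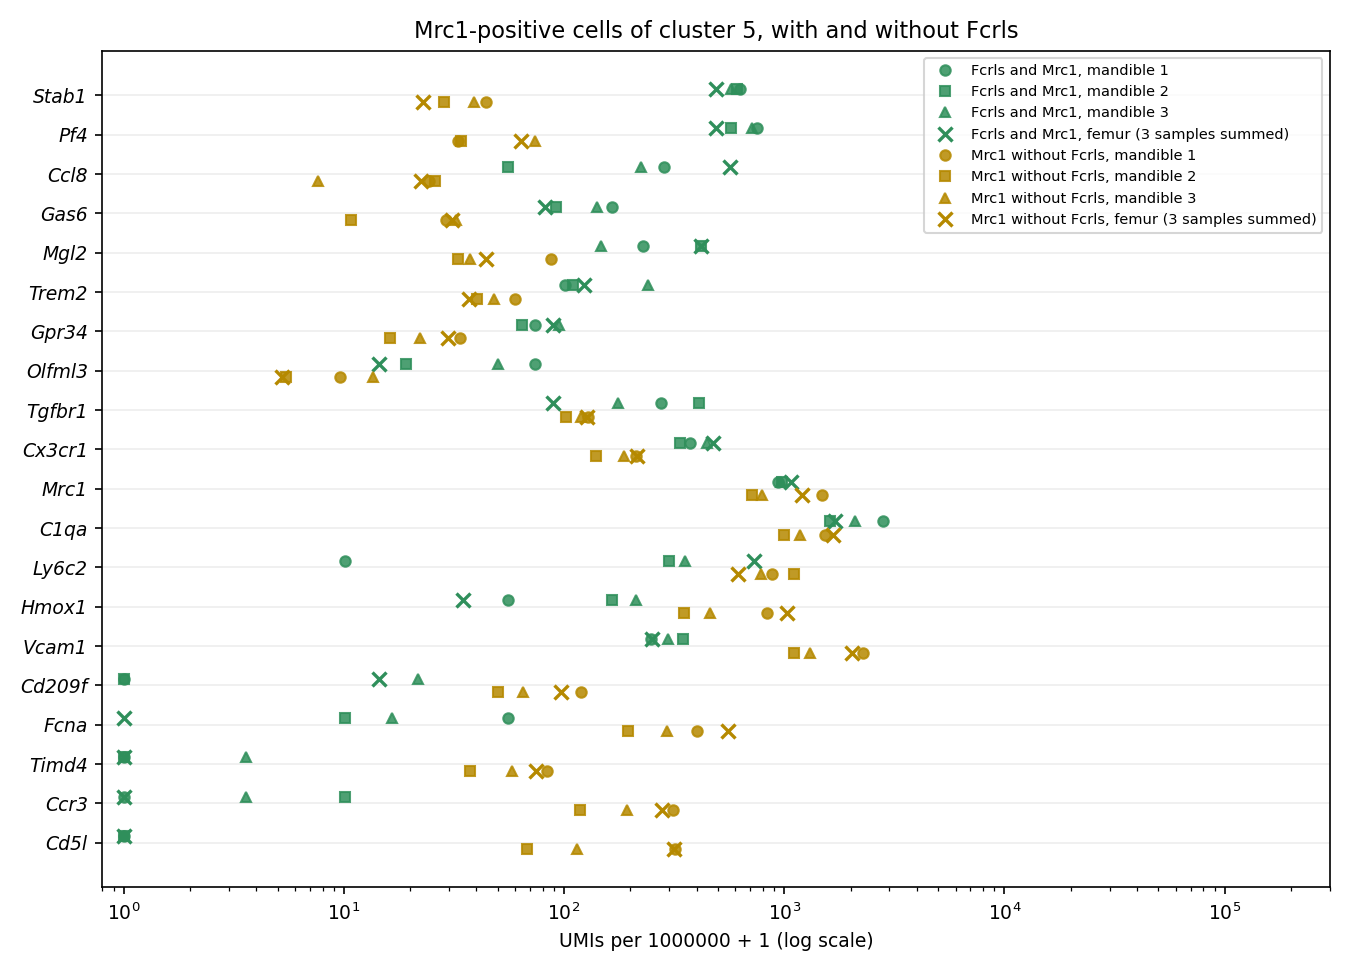
Levels of 20 genes (UMIs per 1000000 UMIs + 1, log scale) in Mrc1-positive cells of cluster 5 with Fcrls (green) and without Fcrls (yellow), for each mandible sample and for the 3 femur samples summed (crosses, 11 and 770 cells). Stab1 and Pf4 lie about an order of magnitude to the right with Fcrls, Vcam1, Fcna, Timd4, Ccr3 and Cd5l lie to the left, and Mrc1 overlaps.

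Stab1 was also higher at the mandible when macrophages of the sites were compared directly. In the sums of cells labelled Macrophages (46 to 167 cells a sample), 3 of 6735 genes passed in the edgeR test of mandible against femur, 0.0445% of those tested, all higher at the mandible. They were Stab1, the enamel gene Amelx and Fcrls, which had been chosen by site and is no test here. The count was 443 at an unadjusted p under 0.05 and 10 with DESeq2. Stab1 had 224, 318 and 524 CPM in the mandible samples and 56.8, 82.2 and 102 CPM in the femur samples, without overlap, as 10% of the genes tested had in this direction (log2 difference 2.09 ± 0.32, adjusted p = 0.0334). Over 10 alternative settings its adjusted p ranged from 5.86e-12 to 0.458 and 5 of the settings kept it under 0.05. It was 0.0874 and 0.0983 without femur replicates 1 and 2, and 0.143 and 0.237 without mandible replicates 2 and 3. Blocked on the library number it was 0.458, with a log2 difference of 1.44 ± 0.25. Pf4 had 220 to 599 against 61.7 to 202 CPM and did not pass (adjusted p = 0.574), and Vcam1 and C1qa overlapped between sites.

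Amelx encodes amelogenin, the enamel protein known from ameloblasts. In the sums of cells labelled Macrophages it had 981, 155 and 95.0 CPM in the mandible samples and 0 UMIs in the femur samples, at least 406-fold higher (floor of 3 counts over the femur samples). Mandible replicate 1 held 500 of the 569 UMIs, and without it the bound was 92.5-fold. The summed level of 5 tooth genes in all of cluster 5 was 15.8 to 1323 CPM at the mandible and 0.0994 to 0.550 CPM at the femur. By qRT-PCR the study found Amelx in mandibular-derived monocytes, without significant expression in those of the femur. It also reported AMELX staining in cultured mandibular-derived osteoclasts, though not in osteoclasts of tissue sections. Whether tooth or socket material, or transcription by the cells themselves, gave the UMIs counted here was not tested. Their part in the Retnla and Fcrls values was not tested either. Of the tooth list, Amelx alone was tested in the split by Fcrls, at 9.11, 200 and 41.6 CPM with Fcrls and 46.9, 43.7 and 23.9 CPM without (log2 difference 0.96 ± 0.48, adjusted p = 0.559).

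Over all of cluster 5, the gene families and pathways of the 3 members showed no change by site that passed a test. Of 13765 genes 0 passed with edgeR (0%), 979 had an unadjusted p under 0.05 and 70 passed with DESeq2. Even Amelx, at a log2 difference of 10.7, did not pass with edgeR (adjusted p = 0.553). Not passing therefore cannot show that the families and pathways were unchanged. The other resistin genes lay near equality, with Retnlg at 2888 ± 278 CPM at the mandible and 2248 ± 1035 CPM at the femur, Retn at 5.39 ± 1.69 and 6.30 ± 2.77 CPM, and Retnlb at 1.04 ± 0.14 and 1.07 ± 0.40 CPM (SD, n = 3). In the Fc receptor-like family, the 3 tested genes had log2 differences of −2.69 ± 0.46 (Fcrl5, a B-cell receptor), −0.46 ± 0.21 (Fcrl1) and 0.69 ± 0.34 (Fcrla), with adjusted p of 0.523, 0.715 and 0.721. In the mannose receptor family, Mrc2 had 0.26 ± 0.40 and Ly75 −0.21 ± 0.33. All 9 tested genes of the interleukin 4 and 13 pathway were within 0.52 of 0 on the log2 scale, with Il4 at 1.5 ± 1.2 CPM at the mandible and 1.4 ± 0.9 CPM at the femur. The 10 tested genes of the alternative activation list had a median log2 difference of −0.21, against −0.01 over all genes. Arg1 was at or under 0.274 CPM on average at both sites, and Chil3, the chitinase-like protein Ym1, was at 1991 ± 144 and 1945 ± 406 CPM. In the sums of all cells 0 of 16381 genes passed with edgeR (0%), with 1535 at an unadjusted p under 0.05 and 239 with DESeq2.

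Mrc1-positive cells differed from the other cells of cluster 5 in macrophage genes when summed. They were not all labelled Macrophages. Of the 781 at the femur and 432 at the mandible, 256 and 144 had that label, 282 and 140 the label Neutrophils and 169 and 89 the label Monocytes. Positive cells labelled Macrophages held 21.6 and 20.3 Mrc1 UMIs each at the femur and mandible, those labelled Neutrophils 5.23 and 6.11 and those labelled Monocytes 3.40 and 2.40. Outside cluster 5, 0.571 to 2.75% of the cells of a sample had a Mrc1 UMI. The authors' cluster 8 stood apart in femur replicate 1, where 54 of 160 cells (33.8%) had Mrc1, at 1.59 UMIs a positive cell. In the other samples the share in that cluster was 0 to 9.09%. After thinning to 3000 UMIs, 540 Mrc1-positive cells of cluster 5 were compared with 6016 negative cells, summed per sample over the 6 samples with sample as a block. Of 9967 genes tested, 31.4% passed, 1527 higher (15.3%) and 1599 lower (16%). In these sums over all labels, the 9 genes of the iron-recycling list were each higher, with a median log2 difference of 5.06, and 18 of 20 tested genes of the resident macrophage list were higher and 0 lower. Vcam1 had 2470.45 ± 986 CPM in the positive and 12.9 ± 4.2 CPM in the negative cells (SD, n = 6; 7.45 ± 0.15, adjusted p = 2.92e-23), and the ferroportin gene Slc40a1 had 1292 ± 688 and 39.2 ± 13.7 CPM. Timd4 and Mertk were also higher, by 7.43 ± 0.34 and 6.93 ± 0.17.

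The largest rises among genes with at least 100 CPM were Slc1a3 (8.22 ± 0.27), Col14a1 (7.72 ± 0.24), Dgki (7.54 ± 0.31), Itgad (7.53 ± 0.21), Pdgfc (7.46 ± 0.23), Vcam1, Fcna (7.23 ± 0.21), Ccr3 (7.19 ± 0.20), Slco2b1 (7.18 ± 0.26) and Cd5l (7.03 ± 0.23), all in 6 of 6 samples. The alternative activation list had 5 of 10 genes higher (Cd163, Mgl2, Clec10a, Tgm2 and Cd200r1), 2 lower (Chil3 at −1.41 ± 0.14 and Pdcd1lg2) and 3 that did not pass. Of 8 tested pathway genes of interleukin 4 and 13, Il13ra1 and Stat6 were lower, by −0.48 ± 0.16 and −0.50 ± 0.17, and 6 did not pass. The microglia list had 8 of 11 genes higher and Siglech lower, and Cx3cr1 and Sparc did not pass.

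Markers of other cells moved with Mrc1 in part. Of 10 monocyte genes 7 were lower, among them Ly6c2 (−1.70 ± 0.12) and Ccr2 (−0.85 ± 0.10), and the Fc receptor Fcgr1 was higher. Of 9 tested dendritic cell genes 7 were higher, led by the lectin Cd209a (2.59 ± 0.17) and the MHC class II gene H2-Ab1 (2.28 ± 0.12), and 2 were lower. Of 10 neutrophil genes 8 did not pass, S100a8 among them at 27140 ± 13710 against 26975 ± 12712 CPM, Retnlg was higher by 0.59 ± 0.09 and Camp lower. The 3 tested tooth genes were each lower, among them Ambn (−5.09 ± 0.71). Amelx had 39.5 ± 45.4 against 181 ± 350 CPM (SD, n = 6; −1.89 ± 0.53, edgeR adjusted p = 0.00677). In the authors' finer clustering, 458 of the 770 femur-derived and 213 of the 385 mandibular-derived cells with Mrc1 and no Fcrls were in cluster 15 (59.5 and 55.3%), against 0 of the 11 femur-derived and 6 of the 47 mandibular-derived cells with both genes.

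Across the 24 sums of 6 samples and 4 ImmGen labels (Macrophages, Monocytes, Neutrophils and DC), the genes whose log2(CPM + 1) was most like that of Mrc1 were Marcks (Pearson r = 0.957), Cd163 (0.956), Axl (0.954), Adam22 (0.953) and Arhgef2 (0.953), out of 13444 genes compared. For Fcrls they were Scrn2 (0.832), P3h2 (0.827), Sclt1 (0.806), Ttll5 (0.804) and Plxna4 (0.802), and for Retnla 1700030J22Rik (0.793), Pdzd2 (0.787), Lrrc4c (0.732), Neurl4 (0.725) and Pdp1 (0.715). Fcrls and Retnla had r = 0.703, Fcrls and Mrc1 0.606, and Retnla and Mrc1 0.291. These values describe sums that share libraries and depth. Scrn2, 1700030J22Rik and Pdzd2 had 57 or 58 UMIs in all, so their places in the order are uncertain.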

How the data were processed

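CD11b+ marrow cells of 3 femur and 3 mandible samples were profiled with 10x Genomics 3′ chemistry. The authors deposited raw UMI counts per gene and barcode (mm10; Cell Ranger 7.0.1 per the submitters' processing notes, 7.1.0 per the file headers) and a metadata table. The study's filter asked for 600 to 6000 genes a cell and for mitochondrial reads of at most 20 percent; the deposited table gives that percent, and the deposited counts of UMIs, clusters and ImmGen labels used here. Whether counting used strand and how doublets were treated are not given in the sources used here. The deposited marker table holds the authors' log2 fold changes, p-values and fraction columns and was not used.

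UMIs were summed per sample and cluster or label and compared with edgeR 4.0.16 in R 4.3.3 (quasi-likelihood test, TMM factors, low-count filter, false discovery rate 0.05). The tables were made with Python 3.11.15 and scipy 1.17.1. CPM are per 1000000 UMIs. Cells were thinned to 3000 UMIs for the comparison of Mrc1-positive with Mrc1-negative cells. The same comparison for Retnla and Fcrls had too few positive cells (at least 10 in each of 3 samples were needed). The split of Mrc1-positive cells by Fcrls used counts that were not thinned. Intervals are 95 percent, exact, and cover counting error only; a count of 0 was taken to allow up to 3. Named genes were the 3 members, genes of hand-written lists, the 5 most alike and the 10 largest changes with at least 100 CPM; the members, lists and tests were chosen with earlier results of these data known. Of the kept cells, 1000 shared a barcode with a cell of another sample, among them 0 Retnla-positive, 1 Fcrls-positive and 14 Mrc1-positive cells of cluster 5. The edgeR site fits of cluster 5, of all cells and of cells labelled Macrophages were also run on simulated counts with the same dispersion for every gene. The splits by Mrc1 and by Fcrls were not simulated. Gene positions came from GENCODE vM21 and promoters from RefSeq.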

Additional observations from a re-analysis of the deposited data

Results flagged for a closer look

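Barcodes that the authors removed lay outside every comparison above and also held UMIs of the 3 genes. In the 1123 barcodes removed from the mandible samples there were 6 Retnla UMIs, in 5 barcodes, against 0 in the 3192 removed from the femur samples. There were 35 Fcrls UMIs, in 15 barcodes, against 4 in 3 barcodes at the femur. Mandible replicate 1 held 5 of the 6 Retnla UMIs and mandible replicate 3 held 25 of the 35 Fcrls UMIs, so both counts rest largely on 1 sample. Of the 35, 21 were in barcodes with more than 6000 genes, 20 of them in mandible replicate 3. Mrc1 had 575 UMIs in 164 of the removed mandible barcodes and 1967 UMIs in 407 of the removed femur barcodes. Femur replicates 1 and 2 held 1072 and 825 of the 1967. The numbers of removed barcodes differ, so these totals do not rank the sites.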

How the results depend on the processing

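Log2 differences of the 3 genes, mandible over femur, kept their sign for Retnla and Fcrls in every alternative run. Leaving out 1 sample gave 7.57 to 9.25 for Retnla, 3.15 to 4.09 for Fcrls and −1.42 to 0.01 for Mrc1 in cluster 5, and 5.67 to 7.01, 3.76 to 4.61 and −0.91 to 0.21 over all cells. The lowest Retnla values were without mandible replicate 1, and the Mrc1 sign rested on femur replicate 1. Same-numbered samples did not deviate together throughout (correlations −0.04 to 0.14 by title number in cluster 5). By the library number, which only 2 pairs share, they were 0.0904 and 0.200 in cluster 5 and 0.156 and 0.171 over all cells. What the library numbers stand for is not given. Blocked on them, only these 2 pairs were fitted, without femur replicate 1 and mandible replicate 3. Fcrls was then 3.89 in cluster 5 and 4.34 over all cells, and Mrc1 turned to 0.09 ± 0.14 and 0.46 ± 0.23 (SE). Leaving out femur replicate 1 alone, without a block, gave Mrc1 0.01 and 0.21. Counts of genes called in cluster 5, none in the main test, were 70 with DESeq2, 8 without the filter on low counts, 5 and 2 with the library and title number as replicate block, and 0 to 14 leaving out 1 sample. Over all cells they were 239, 36 and, with the library block, 18, and 0 to 37 leaving out 1 sample (37 without mandible replicate 1). For cells labelled Macrophages, against 3, they were 10 with DESeq2, 105 without the filter, 7 with the title number block, and 0 to 5 leaving out 1 sample (0 without mandible replicate 3). For Fcrls-positive among Mrc1-positive cells, against 169, they were 89 with DESeq2, 276 without the filter and 125 to 288 leaving out 1 sample (288 without mandible replicate 1). A tally covered 18 of the genes named there and left out others, such as Elane, Lyz1, Plxna4, Itgad, Dgki and Slc1a3. Of the 18 covered, 12 passed with DESeq2 (Trem2, Gpr34, Tgfbr1, Cx3cr1, Hmox1 and Cd209f lost), 17 without the filter (Cx3cr1 lost), 16 without mandible replicate 2 (Tgfbr1 and Cx3cr1 lost), 13 without mandible replicate 3 (Trem2, Gpr34, Tgfbr1, Cx3cr1 and Vcam1 lost) and all 18 kept their direction in each alternative. Elane, outside the tally, did not pass with DESeq2 and was filtered out without mandible replicate 3. The log2 odds ratio of Fcrls and Mrc1, 5.12 after thinning to 3000 UMIs, was 3.98 not thinned, 3.81 at 1000 UMIs and 6.79 over all cells. With 0.5 added to each count, samples without Fcrls-positive cells also score above 0. At 1000 UMIs femur replicates 2 and 3 had no such cell and scored 3.19 and 4.39. Over all cells femur replicate 2 had none and scored 5.73, and femur replicate 3 scored 4.85 with Mrc1 in 0 of 2. The Macrophages share differed by −5.90 to 0.189 points leaving out 1 sample and reversed without femur replicate 1 (0.189). The Fcrls share differed between sites by 1.41 points as counted, 0.774 at 3000 UMIs and 0.476 at 1000 UMIs. The cause of these moves was not tested. The few positive cells, 12 for Retnla and 78 for Fcrls, limit every value of these 2 genes.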
